A study of Mus musculus with 12 samples.

Results

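The genes described here are the immediate-early transcription factors Egr1, Egr2 and Egr3, the related nuclear receptors Nr4a1, Nr4a2 and Nr4a3, the Egr co-repressors Nab1 and Nab2, and Arc. They were chosen by gene symbol, and they are 9 of the 78298 genes in the deposited count table. Each symbol matched a single row, and all 9 passed the filter on low counts that 13318 genes passed. The set was put together with results of the comparison between the lines in view, so its differences between the lines are descriptions and not independent evidence. Egr3 in particular was already known to lie far below its level in the other line, and no p-value is given for it.

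Polyadenylated RNA was sequenced in paired reads of 50 bases from C2C12, a mouse myoblast cell line whose cells fuse into myotubes when the serum is changed. There are 6 libraries of the wild type (WT), and 6 of RGECO, a derived line with a calcium indicator encoded in its DNA. Cells of both lines grew in high-glucose DMEM with 10% fetal bovine serum and penicillin-streptomycin. They were kept on a hydrogel of methacrylated gelatin and differentiated for 14 days. For both, the differentiation medium held 10% inactivated horse serum, 50 ng/ml of the growth factor IGF-1 and 1 mg/ml of aminocaproic acid. The labels do not say how the indicator was introduced, what drives it or whether the line is a single clone, so indicator, clone and culture history cannot be told apart. They also do not say that replicates are separate cultures, and p-values then measure only the spread between these libraries, which may be technical.

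Egr proteins are zinc-finger transcription factors whose genes are switched on quickly, with no need for new protein, when growth factors, calcium or stretch activate the kinases and factors that act on serum response and cAMP response elements. Nab1 and Nab2 bind Egr1, Egr2 and Egr3 and repress transcription at their targets. Nr4a receptors are orphan nuclear receptors that bind DNA without a known ligand. In muscle they respond to exercise and adrenergic signals, and they act on genes of glucose and fatty acid use. Egr3 is known in muscle for its need in the spindle, the stretch-sensing organ, and Arc is an activity-induced gene best known at synapses.

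RGECO replicate 4 had 824 counts spread over 250 genes, and all 9 genes were at 0 there. It was left out on its total, so values compare 6 WT with 5 RGECO libraries. The WT libraries held 9370310 to 11744300 counts and the RGECO libraries 5881600 to 11926200, with RGECO 5 and RGECO 1 the shallowest. All 8 myotube markers, among them Acta1, Myh3 and Myog, had counts, and 1 of the 8 was called higher. Their summed level was 10216 to 12269 TPM (transcripts per 1000000) in WT and 12912 to 17545 in RGECO, groups that did not overlap. Acta1 made up most of that sum, with means of 7392 TPM in WT and 9486 in RGECO. Des, Myh3, Myh1 and Tnnt3 also had higher means in RGECO. Ckm (478 and 417), Myog (499 and 479) and Ttn (259 and 257) had lower ones. The summed neuron markers lay at 13.7 to 24.6 TPM in WT and 30.6 to 56.9 in RGECO. Syn1 and Tubb3, both called higher, made up that sum, while Rbfox3 and Snap25 had 0 counts in every library. Fibroblast markers summed to 640 to 1167 TPM in WT and 729 to 851 in RGECO, and cycling myoblast markers to 88.9 to 152 and 97.7 to 114. Macrophage markers, nearly all of it Cd68, summed to 19.3 to 30.7 and 17.8 to 40.0 TPM with Adgre1 at 0, and endothelial and Schwann cell markers reached at most 0.588 and 1.57 TPM. What the myotube and neuron markers contribute to the results below was not tested. In bulk RNA, fewer cells of a type and less RNA per cell cannot be told apart.

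Egr2, Egr3, Nr4a3 and Arc were lower in RGECO than in WT, by 2.10, 3.63, 2.98 and 2.18 times. Egr1 and Nr4a1, the most abundant member of each family, differed by 1.23 times each and did not pass the test, and neither did Nr4a2, Nab1 or Nab2. Levels between lines are CPM (counts per 1000000 counts of the library) scaled by TMM, and calls are those of edgeR's quasi-likelihood test at an adjusted p under 0.05 over the 13318 genes. Of the 9 genes, 4 were called lower and 0 higher, beside 4.93% of all genes tested called lower and 3.42% called higher. For 5 of 9 the CPM ranges of the lines did not overlap, the 4 named and Nr4a2, all with RGECO below WT, beside 4.50% of all genes tested below, 3.47% above and 7.97% in either direction. The log2 fold change was negative for 8 of 9, with a median of -0.74 beside -0.01 over all genes. Nothing is read from these shares, since the same contrast chose the genes.

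**Figure D1:**
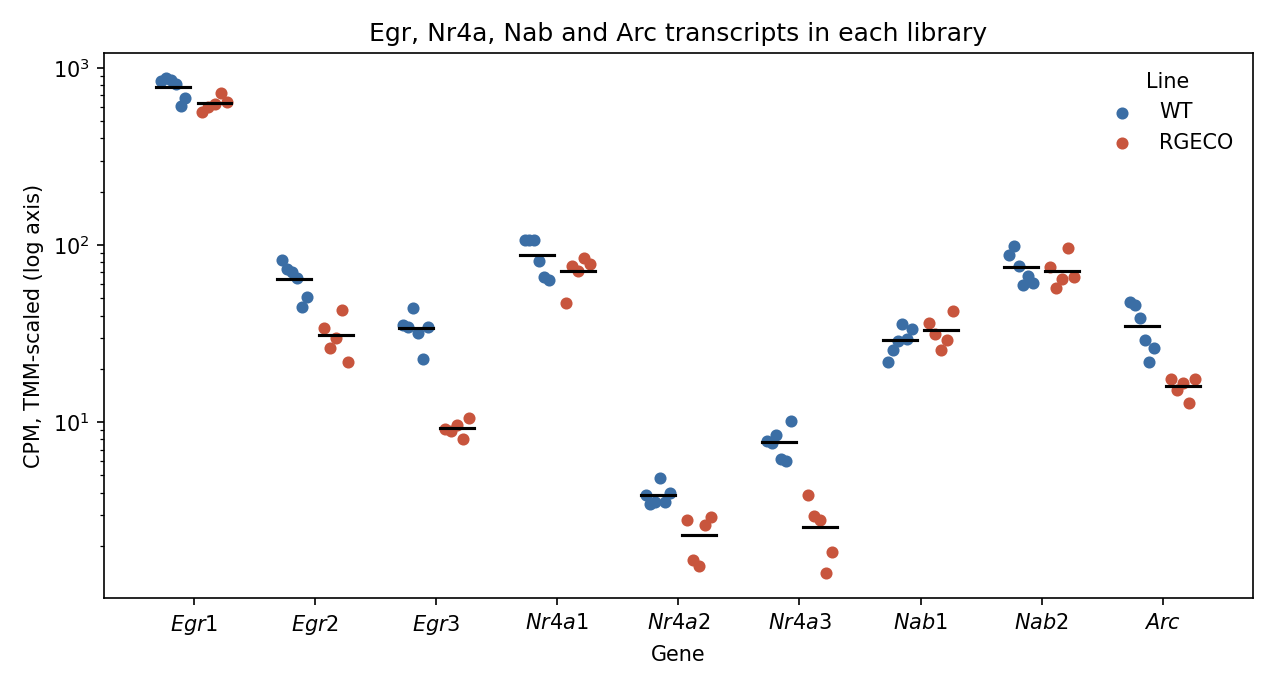
TMM-scaled CPM on a log axis for the 9 genes in each of 6 WT (blue) and 5 RGECO (red) libraries, with points in replicate order and black lines at the mean. Egr3 sits at 22.9 to 44.0 in WT and 8.05 to 10.6 in RGECO, while the points of the lines overlap for Egr1, Nr4a1, Nab1 and Nab2.

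**Figure D2:**
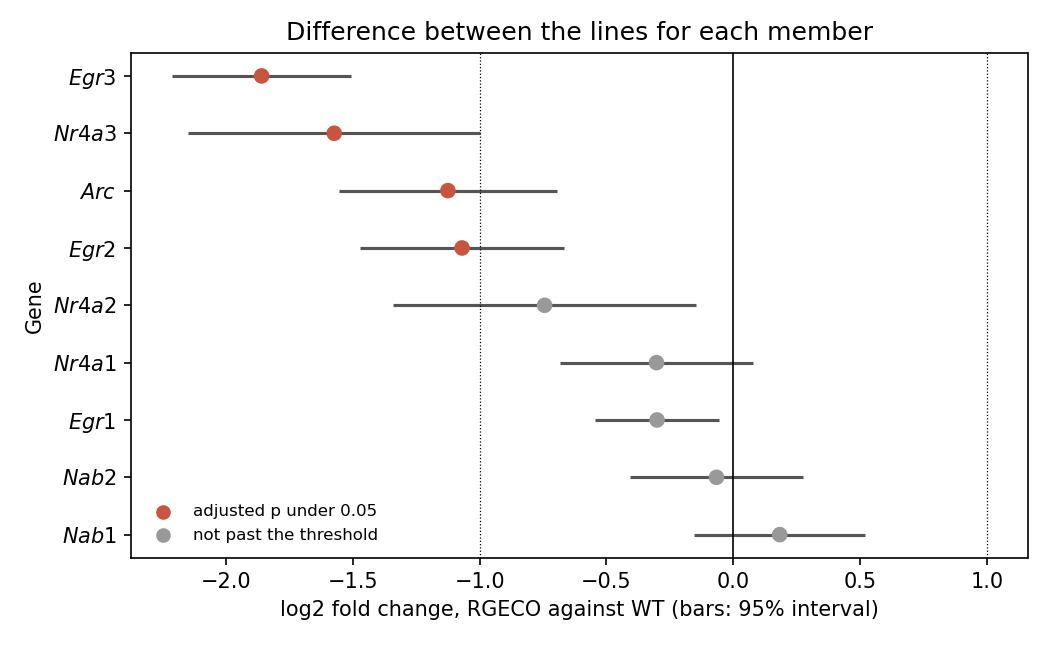
Log2 fold change of RGECO against WT for each of the 9 genes from edgeR, with 95% intervals as bars, red points for called genes and dotted lines at 2-fold. Egr3, Nr4a3, Arc and Egr2 lie below -1, and the intervals of Nab1 and Nab2 lie within 2-fold.

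Levels of different genes were compared as TPM, which is per length. In WT the mean TPM ran from Egr1 at 211 ± 23.1 (SD, n = 6) through Nr4a1 at 44.3, Nab2 at 38.3 and Egr2 at 30.9 to Nab1 at 14.3, Arc at 13.9 and Egr3 at 11.9, with Nr4a3 at 2.34 and Nr4a2 at 2.21 last. Egr1 stood apart from all others. The ranges overlapped between Nr4a1 and Nab2, Nab2 and Egr2, Nab1 and Arc, Arc and Egr3, and Nr4a3 and Nr4a2, so the spread over libraries did not separate those neighbours. Compared within each library, Nab2 was nevertheless above Egr2 in 6 of 6, Nr4a1 above Nab2 and Arc above Egr3 in 5 of 6, and Nab1 above Arc and Nr4a3 above Nr4a2 in 4 of 6. Egr2 and Nab1 were separated narrowly, with a lowest Egr2 value of 20.51 and a highest Nab1 value of 20.47 TPM. In RGECO the mean TPM ran from Egr1 at 185 ± 7.90 (SD, n = 5) through Nr4a1 at 40.4, Nab2 at 38.7, Nab1 at 16.9 and Egr2 at 14.9 to Arc at 7.05, Egr3 at 3.69, Nr4a2 at 1.14 and Nr4a3 at 0.642. Neighbours that overlapped there were Nr4a1 and Nab2 (the first above in 3 of 5 libraries), Nab1 and Egr2 (4 of 5), and Nr4a2 and Nr4a3 (3 of 5). Nab1 and Egr2 thus stand in the opposite order of means in the lines, and Arc and Egr3, which overlapped in WT, did not overlap in RGECO, where the lowest Arc value was 5.18 and the highest Egr3 value 4.89 TPM.

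Egr1, the broadly expressed founder of its family, was the most abundant of the 9 in every library. Its WT values ran from 608 CPM through a median of 825 to 881, and RGECO replicates 1, 2, 3, 5 and 6 had 566, 598, 625, 723 and 644 CPM. WT 5 and WT 6, at 608 and 673 CPM, lay among the RGECO values, and the other 4 WT libraries lay above all 5. WT averaged 777 ± 110 CPM (SD, n = 6), RGECO 631 ± 59.2 (SD, n = 5). The log2 fold change was -0.30 ± 0.11 (SE), with an adjusted p of 0.128 from edgeR and a 95% interval of -0.54 to -0.06, within 2-fold. The call depends on the model. With the share of counts in mitochondrially encoded genes as a covariate edgeR gave -0.34 (adjusted p = 0.0132), and with the share in Malat1, a nuclear RNA, it gave -0.36 (adjusted p = 0.0163). Both covariates also raised the number of genes called genome-wide, with the mitochondrial share to 3133 of 13318, beside 1112 in the main fit.

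Egr2, known for myelination and for tendon and immune cell genes, lies on chr10:67535475-67542188 (GRCm38, plus strand) in 2 exons. WT libraries held 44.4 to 82.7 CPM with a median of 67.5, and RGECO 1, 2, 3, 5 and 6 held 33.8, 26.3, 29.7, 42.7 and 22.0. The groups did not overlap, but WT 5 at 44.4 and RGECO 5 at 42.7 nearly met. The log2 fold change was -1.07 ± 0.19 (SE), with a 95% interval of -1.47 to -0.67 and an adjusted p of 0.00218 from edgeR. Egr2 also moved with depth. After subtraction of each line's mean, its log2 CPM was lower in libraries with more counts, with Pearson's r = -0.81 over 11 libraries (permutation p = 0.00041, adjusted p = 0.0111 over 27 relations of the 9 genes with 3 library properties) and Spearman's rho = -0.88 (permutation p = 0.00049, adjusted p = 0.0119). Without the 2 libraries farthest from the median total, r was -0.82. The shallow RGECO libraries 1 and 5 had the highest Egr2 values of their line. Without them the log2 fold change was -1.31 (adjusted p = 0.00343 from edgeR), larger than the -1.07 with them.

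Where RefSeq places 3 of the 5 Egr2 starts in its promoter table (GRCm38.p6), a CArG box stands close upstream. The CArG box is the letter pattern that serum response factor binds. It is shown because, of the 6 set genes in the promoter table, only Egr2 has an exact match in the 250 bases before a start. A CRE core, TGACG or its reverse complement CGTCA, also follows the box closely. Egr1, Egr3 and Arc were not in that table, and inexact matches were not searched, so the box is not shown to set Egr2 apart. The stretch is chr10:67537793-67537822 on the plus strand, with the box and the core in capitals.
Egr2: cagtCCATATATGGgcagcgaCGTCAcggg
The box starts 72 bases before the first of those starts. A CArG box was found in 4 of the 5 Egr2 windows and in 1.47% of 32851 windows of that length, searched on both strands. The windows of the 3 starts named above overlap and hold the same box, and the remaining one of the 4 holds a different box. A match describes these letters and does not show that a factor binds there.

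Egr3, the member tied to spindle fibres, lies on chr14:70077203-70082614 (GRCm38, plus strand) in 2 exons. It held 22.9 to 44.0 CPM in WT with a median of 34.4, and 9.12, 8.95, 9.60, 8.05 and 10.6 CPM in RGECO 1, 2, 3, 5 and 6. The lowest WT value was more than 2-fold above the highest RGECO value. The WT mean of 33.8 ± 6.81 CPM (SD, n = 6) stood against 9.27 ± 0.940 (SD, n = 5) for RGECO, and the log2 fold change was -1.86 ± 0.17 (SE), with a 95% interval of -2.21 to -1.51. Of the 13318 genes tested, 0.721% had a log2 fold change that low or lower. Nothing is read from that share, since the same contrast chose the gene. The RGECO libraries lay close together, with a coefficient of variation of 10.1% beside 20.1% in WT. In estimated counts, Egr3 had 46 to 127 in RGECO and 279 to 424 in WT. Egr4, the remaining family member, had 2 counts in RGECO 3 and 0 in the other 10 libraries and was not tested. Counts under the floor of 3, which corresponds to 0.246 to 0.525 CPM per library, cannot be told from its absence, and this floor covers counting error only.

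Within the family, Egr1 held a larger part of the summed Egr TPM in RGECO. WT libraries summed to 254 ± 31.2 TPM (SD, n = 6), RGECO libraries to 203 ± 9.68 (SD, n = 5). Egr1 made up 83.3% ± 2.73 of it in WT and 90.8% ± 0.841 in RGECO. The share of Egr2 was 12.1% (9.82 to 15.7) in WT and 7.33% (5.84 to 8.32) in RGECO, and that of Egr3 was 4.63% (3.79 to 5.33) and 1.81% (1.57 to 2.39). For each of the 3 the ranges of the lines did not overlap. In the Nr4a family, where the sum was 48.9 ± 7.21 TPM in WT and 42.2 ± 7.31 in RGECO, Nr4a3 made up 4.80% (2.91 to 6.84) in WT and 1.67% (0.724 to 3.48) in RGECO, ranges that overlapped. Nr4a2 made up 4.69% and 2.83%, and Nr4a1 90.5% and 95.5%. These shares come from the contrast that chose the genes and carry no test.

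**Figure D3:**
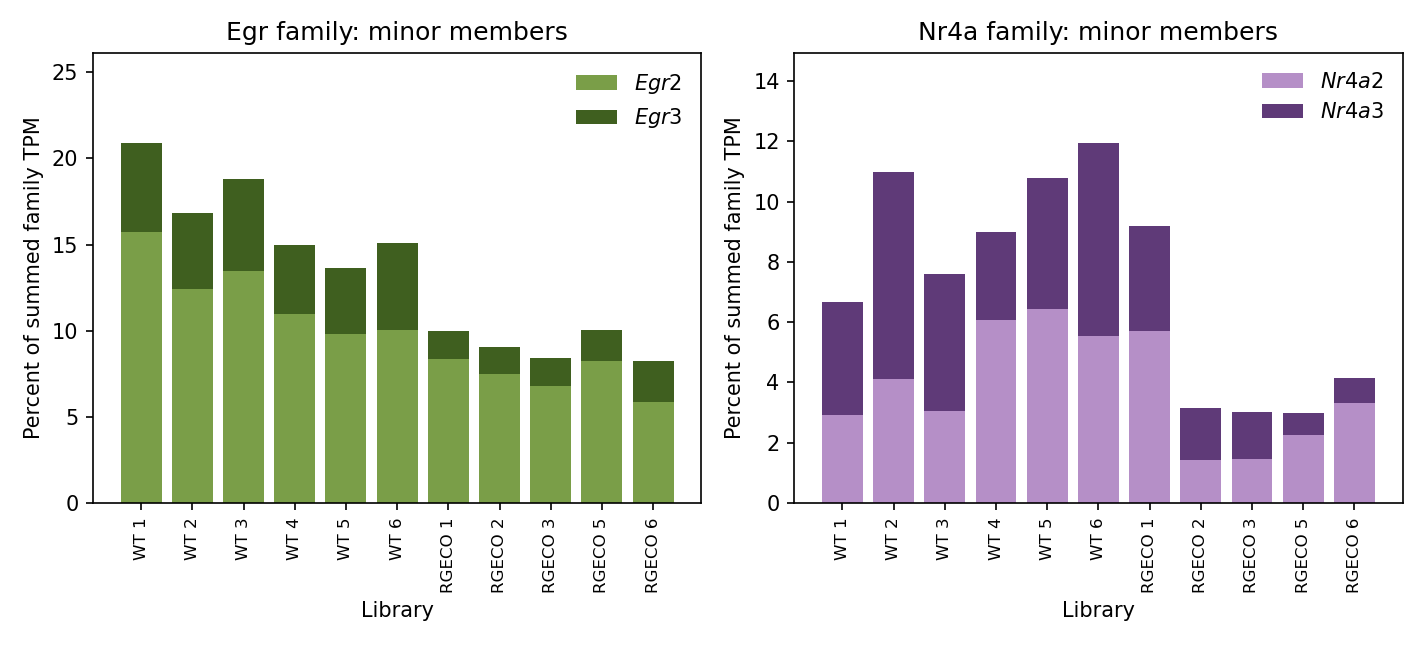
Percent of the summed family TPM in each of 6 WT and 5 RGECO libraries, stacked for Egr2 and Egr3 (left) and for Nr4a2 and Nr4a3 (right), with Egr1 or Nr4a1 holding nearly all of the rest. Egr2 and Egr3 averaged 12.1% and 4.63% in WT and 7.33% and 1.81% in RGECO, while the Nr4a stacks vary widely among RGECO libraries.

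Nr4a1, also called Nur77, lies on chr15:101254269-101274795 (GRCm38, plus strand) in 8 exons. It had 63.6 to 107 CPM in WT with a median of 93.5, and 47.1, 75.9, 71.6, 84.4 and 78.6 CPM in RGECO 1, 2, 3, 5 and 6. WT 5 and WT 6, the lowest WT libraries for Egr1 too, were the lowest here at 65.7 and 63.6 CPM, and the groups overlapped. The log2 fold change was -0.30 ± 0.18 (SE), with a 95% interval of -0.68 to 0.08 and an adjusted p of 0.355 from edgeR. With the Malat1 share as a covariate it was -0.45 (adjusted p = 0.0363 from edgeR), the single alternative in which Nr4a1 was called. That fit also called more genes genome-wide than the main fit.

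Nr4a2, or Nurr1, lies on chr2:57106830-57124003 (GRCm38, minus strand) in 8 exons and was among the rarest of the 9. It had 3.46 to 4.82 CPM in WT with a median of 3.70, and 2.82, 1.67, 1.54, 2.63 and 2.93 CPM in RGECO 1, 2, 3, 5 and 6, from 31 to 49 counts per WT library and 15 to 35 per RGECO library. All 5 RGECO values lay below all 6 WT values in CPM, but in TPM the groups overlapped. The log2 fold change was -0.74 ± 0.28 (SE), with a 95% interval of -1.34 to -0.15 and an adjusted p of 0.123 from edgeR, so at this depth the difference did not pass the test.

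Nr4a3, or NOR-1, lies on chr4:48045153-48086447 (GRCm38, plus strand) in 8 exons. It had 6.07 to 10.2 CPM in WT with a median of 7.73, and 3.89, 2.95, 2.79, 1.40 and 1.84 CPM in RGECO 1, 2, 3, 5 and 6. The groups did not overlap, and RGECO 5, the shallowest library, was the lowest with 8 counts. The log2 fold change was -1.57 ± 0.27 (SE), with a 95% interval of -2.15 to -1.0 and an adjusted p of 0.00180 from edgeR. The order of libraries within a line changed between units. WT 2 had 68 counts and 3.42 TPM, while WT 5 had 74 counts and 1.75 TPM. The line difference held on both scales.

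The Nr4a promoters share a feature that the choice of the genes did not use. Each holds 4 CRE cores (TGACG or CGTCA) in the 250 bases before its RefSeq start, and they are shown because calcium and cAMP signals act on such elements through CREB. Capitals mark the cores, and each sequence is 5′ to 3′ on the gene's strand in GRCm38.p6. Nr4a1 covers chr15:101266596-101266845 (plus strand), Nr4a2 covers chr2:57124004-57124253 (minus strand), and for Nr4a3 the 98 bases up to the first annotated exon are given, chr4:48045055-48045152 (plus strand), which hold 3 of its 4 cores.
Nr4a1: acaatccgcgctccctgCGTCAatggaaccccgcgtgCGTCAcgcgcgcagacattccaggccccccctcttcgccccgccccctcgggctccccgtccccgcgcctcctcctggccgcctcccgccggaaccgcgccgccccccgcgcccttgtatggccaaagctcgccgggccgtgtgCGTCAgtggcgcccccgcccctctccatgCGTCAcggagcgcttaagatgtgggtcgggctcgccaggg
Nr4a2: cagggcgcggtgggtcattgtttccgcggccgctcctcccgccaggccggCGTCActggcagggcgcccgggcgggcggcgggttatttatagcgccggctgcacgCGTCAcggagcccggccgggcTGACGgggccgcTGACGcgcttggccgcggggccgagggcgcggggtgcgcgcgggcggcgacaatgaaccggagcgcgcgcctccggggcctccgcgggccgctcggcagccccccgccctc
Nr4a3: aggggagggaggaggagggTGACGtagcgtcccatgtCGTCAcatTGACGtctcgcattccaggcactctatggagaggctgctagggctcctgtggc
At least 1 such core was found in 17.8% of the 32851 RefSeq windows and 4 or more in 0.137%. The full palindrome TGACGTCA, which would count as a core on each strand, was in none of the windows of the 6 genes of the set found in the table (Egr2, Nr4a1, Nr4a2, Nr4a3, Nab1 and Nab2). Egr2 held the same 2 cores before 3 of its 5 starts, whose windows overlap, Nab1 held 1 and Nab2 held 0. The Nr4a genes thus share the count of cores, while their log2 fold changes between the lines were -0.30 for Nr4a1, -0.74 for Nr4a2 and -1.57 for Nr4a3, a spread among genes that was not tested.

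Nab1 and Nab2, the co-repressors, were not called different between the lines. Nab1 had 21.8 to 35.6 CPM in WT with a median of 29.1, and 36.5, 31.7, 25.5, 29.2 and 42.5 CPM in RGECO 1, 2, 3, 5 and 6, with overlapping groups. Its log2 fold change was 0.18 ± 0.16 (SE), with a 95% interval of -0.15 to 0.52 and an adjusted p of 0.556 from edgeR. Nab2, on chr10:127660918-127668568 (GRCm38, minus strand), had 59.8 to 98.5 CPM in WT with a median of 71.7, and 75.3, 57.5, 64.0, 96.4 and 65.9 CPM in RGECO 1, 2, 3, 5 and 6. Its log2 fold change was -0.07 ± 0.16 (SE), with a 95% interval of -0.41 to 0.28 and an adjusted p of 0.868 from edgeR. Both intervals lie within 2-fold. Over the 22 alternative fits the log2 fold change ran from 0.09 to 0.35 for Nab1 and from -0.26 to 0.03 for Nab2. Neither gene was called in any of them. Nab2 is the one gene of the set that overlaps others in the annotation, on the opposite strand: Nemp1 over 1668 bases, Gm16229 over 1646 and Stat6 over 40. Over the 11 libraries Nab2 had 7613 counts, Nemp1 1816, Stat6 67 and Gm16229 1. The strand setting of the counting is not given in the sources used here, so part of the Nab2 count is uncertain. Nab1 holds 3 matches to the Egr pattern GCGNGGGCG in its promoter window, searched on both strands, a pattern found at least once in 4.70% of all windows and 3 or more times in 0.140%.

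On the CPM scale, Nab1 moved with a mark of the libraries. Within lines its log2 CPM was higher where Malat1 took a larger share of the counts, with Pearson's r = 0.84 over 11 libraries (permutation p = 0.00343, adjusted p = 0.0463) and Spearman's rho = 0.91 (permutation p = 0.00088, adjusted p = 0.0119), and r was 0.90 without the 2 libraries farthest from the median Malat1 share. That share was 0.156% to 0.898% in WT and 0.180% to 0.645% in RGECO. Of the 27 relations computed, this one and that of Egr2 with the library total passed. All 27 used log2 CPM, and the relation with Malat1 was not computed on TPM. The pattern of Nab1 within lines depended on the scale. Its r with Egr1 was -0.35 on log2 CPM and 0.72 on log2(TPM + 1), and with Egr2 -0.56 and 0.74. In TPM the highest WT value was 20.5 in WT 3, while WT 6, with the largest Malat1 share, had 13.8.

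Arc, on chr15:74669083-74672570 (GRCm38, minus strand) in 3 exons, had 22.0 to 47.4 CPM in WT with a median of 34.1, and 17.6, 15.1, 16.7, 12.8 and 17.5 CPM in RGECO 1, 2, 3, 5 and 6. All RGECO libraries lay below all WT libraries. WT 5, at 22.0 CPM, was the WT library nearest to them. WT averaged 34.9 ± 10.6 CPM (SD, n = 6), RGECO 15.9 ± 2.02 (SD, n = 5), with a log2 fold change of -1.12 ± 0.20 (SE), a 95% interval of -1.55 to -0.70 and an adjusted p of 0.00237 from edgeR. The WT libraries were spread more widely, with a coefficient of variation of 30.5% beside 12.6% in RGECO. The neuron marker sum given above, made up of Syn1 and Tubb3, was higher in RGECO, and its relation to Arc was not tested.

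Library-to-library variation within a line does not use the contrast between the lines. Deviations of log2 CPM from each line's mean were correlated over the 36 pairs of the 9 genes, and 1 pair passed. Egr1 and Nr4a1 rose and fell together, with Pearson's r = 0.86 over 11 libraries (permutation p = 0.00041, adjusted p = 0.0148). Spearman's rho was 0.85 (permutation p = 0.00216, adjusted p = 0.0778), and r was 0.81 without the 2 libraries farthest from the median of Egr1 and 0.91 with the library total held fixed. On log2(TPM + 1), r was 0.48 (permutation adjusted p = 0.356), so the relation was not found on that scale. Within lines, Egr1 and Nr4a1 also ran lower where the Malat1 share was larger (r = -0.52 and -0.67). With the mitochondrial share, r was -0.48 and -0.47. These relations did not pass after adjustment. Neither share was held fixed for this pair, so what they contribute to it was not tested. Egr1 with Egr2 had r = 0.73 (permutation p = 0.0153, adjusted p = 0.183) and rho = 0.76. Egr2 with Nab2 had r = 0.76 (permutation p = 0.0148, adjusted p = 0.183) and rho = 0.71, and Egr3 with Arc r = 0.71 (permutation p = 0.0292, adjusted p = 0.263) and rho = 0.74. The 3 rho values had permutation p of 0.0140, 0.0272 and 0.0204, each with an adjusted p of 0.196, and these pairs did not pass. Over the 6 WT libraries alone, a choice made after seeing the data, 0 of the 36 pairs passed after adjustment and 7 had an unadjusted exact p under 0.05. Egr2 and Arc came closest there, with r = 0.95 (exact permutation p = 0.00139, adjusted p = 0.05) and rho = 1.0 (exact permutation p = 0.00278, adjusted p = 0.1). Over all 11 libraries that pair had r = 0.49 (permutation p = 0.149, adjusted p = 0.386) and rho = 0.54 (permutation p = 0.116, adjusted p = 0.377), and in the 5 RGECO libraries the sign was the opposite (r = -0.66, too few libraries to test).

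**Figure D4:**
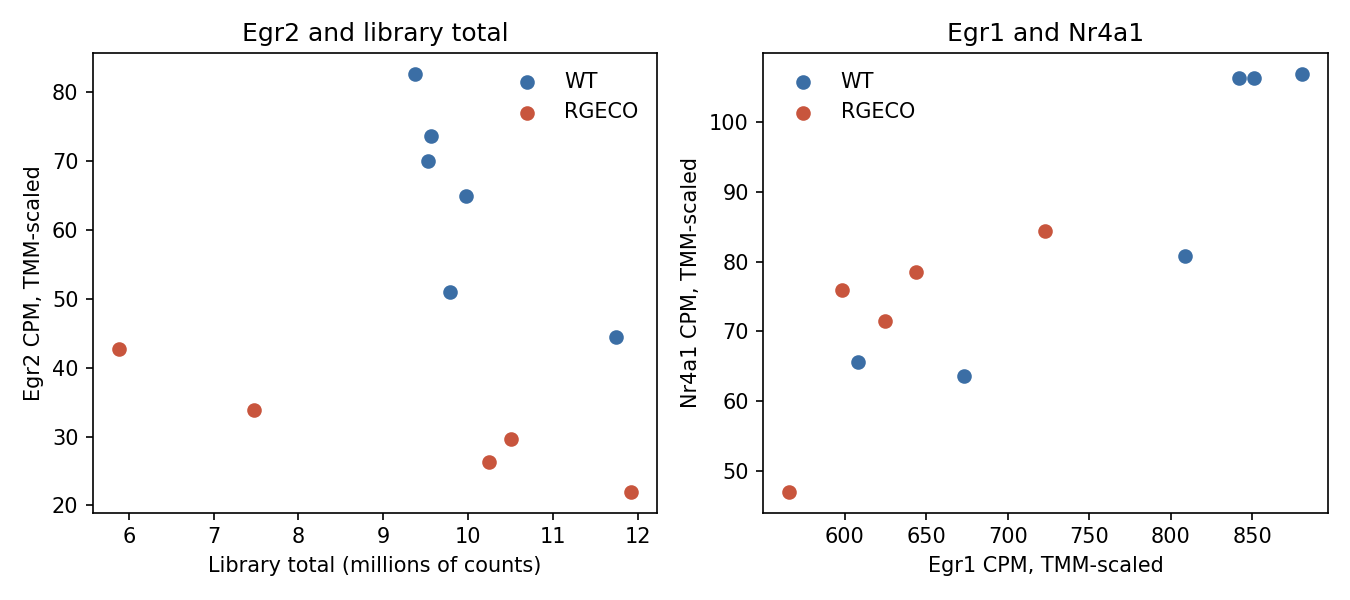
Left, Egr2 CPM against the library total in units of 1000000 counts, and right, Nr4a1 CPM against Egr1 CPM, with 1 point for each of 6 WT (blue) and 5 RGECO (red) libraries. Egr2 is lower in larger libraries of either line (r = -0.81 within lines), and Nr4a1 is higher where Egr1 is higher (r = 0.86 within lines).

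The genes whose within-line pattern was most like that of Egr1, among 7645 genes at a mean log2 CPM of at least 4, were Tnnc2 (r = 0.95), Pcgf2 (0.92), Nap1l4 (0.91), Eif4g3 (0.91), Bloc1s1 (0.90) and Trit1 (0.90). Nr4a1 would rank 18 among them. For Egr3 they were Plcg2 (0.79), Nipal3 (0.79), Otud1 (0.78), Ccdc134 (0.77), Carns1 (0.76) and Cib1 (0.75), and Arc would rank 15. On log2(TPM + 1) these were lower, at 0.61, 0.71, 0.04, 0.30, 0.85 and 0.47 for the 6 genes like Egr1 and 0.28, 0.69, 0.50, 0.24, 0.31 and 0.05 for those like Egr3, in the same order. These are the highest of many correlations over 11 libraries that share depth and scaling, and they are given as descriptions.

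Other immediate-early and AP-1 genes did not move in 1 direction. Of a list of 36 genes, 35 were tested, 8 were lower and 3 higher, which is 31.4% called beside 8.35% of all genes, and the median log2 fold change was -0.23 beside -0.01. This list and those below were chosen with earlier results of these data known, so nothing is read from their shares of called genes. Lower were Dusp5, a phosphatase of nuclear ERK (-1.35 ± 0.17 SE, 39.5 CPM in WT and 15.4 in RGECO), the kinases Plk3 (-0.85) and Sgk1 (-0.83), the AP-1 subunit Fosb (-0.82), the growth regulator Myc (-0.80) and the transcriptional repressor Nfil3 (-0.56). The other 2 called lower were Ccn1 (-0.52) and Klf10 (-0.51), which are outside the rule for naming genes and are named because their values were seen. Higher were Dusp1, a phosphatase of stress-activated kinases (0.85 ± 0.10 SE, 101 CPM in WT and 181 in RGECO), the antiproliferative factor Btg2 (0.67) and the matrix-associated factor Ccn2 (0.47). Ccn2 lost its call without WT 1, WT 4, RGECO 1 or RGECO 6 (adjusted p from 0.0523 to 0.0776 from edgeR), and Ccn1 without RGECO 2 or RGECO 6 (0.0651 and 0.0576). Fosb, Plk3, Nfil3, Klf10 and Btg2 each lost it in at least 1 other alternative, while Dusp1, Dusp5, Sgk1 and Myc held it in all 22.

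**Figure D5:**
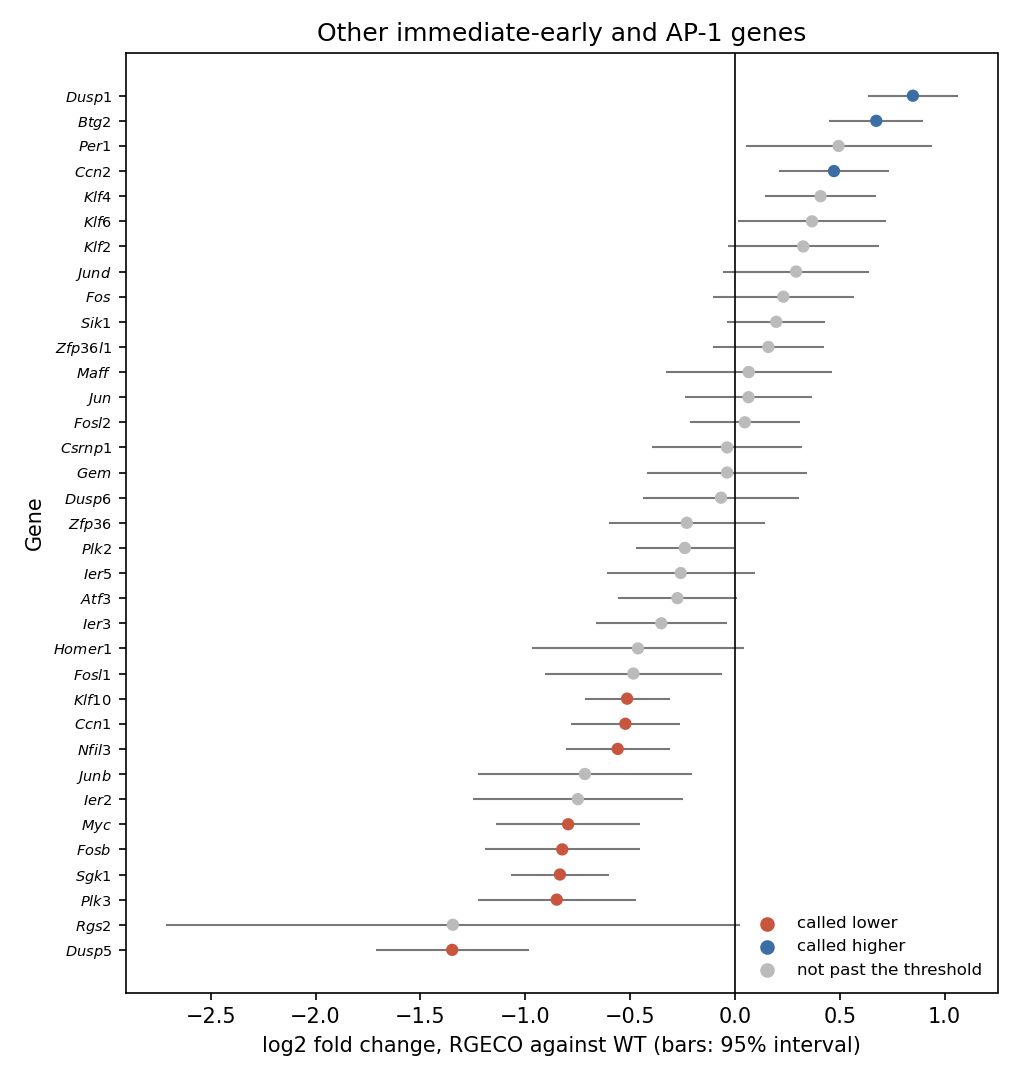
Log2 fold change of RGECO against WT with 95% intervals for the 35 tested genes of the immediate-early and AP-1 list, sorted by value. Dusp5 at -1.35 is lowest and Dusp1 at 0.85 is highest, and most points are grey, which marks genes that did not pass the test.

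The factors and kinases upstream of these genes were taken as a list of 29. Of 29 tested, 1 was called, Srf, the serum response factor that binds CArG boxes, at -0.79 ± 0.21 (SE; adjusted p = 0.0260 from edgeR), from 73.5 ± 22.4 CPM (SD, n = 6) to 42.4 ± 9.67 (SD, n = 5), with overlapping groups. The list's median was -0.05, and 3.45% of it was called beside 8.35% of all genes tested, so nothing is read about the list. The Srf call was lost on log2(TPM + 1) (adjusted p = 0.126 from limma) and when WT 1, WT 3, RGECO 1, RGECO 2, RGECO 5 or RGECO 6 was left out (adjusted p from 0.0507 to 0.0791).

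Among genes that Egr1 is known to bind or regulate, 15 of 18 were tested, 4 were lower and 0 higher, with a median of -0.07. F3, tissue factor, fell by 2.13 on the log2 scale (SE 0.19), from 15.5 ± 0.977 CPM (SD, n = 6) to 3.60 ± 0.974 (SD, n = 5), and held its call in all 22 alternatives. The collagen genes Col1a1 (-1.98) and Col1a2 (-0.74) and the matrix protein gene Thbs1 (-0.55) were the others, and each lost its call when the near-empty library was included, at -2.19, -0.98 and -0.77 (adjusted p = 0.0511, 0.642 and 0.703 from edgeR). Col1a2 also lost it on log2(TPM + 1) (adjusted p = 0.137 from limma) and log2(TPM + 0.1) (0.142). The share called was 26.7%, beside 8.35% of all genes tested and 4.93% called lower. Collagen genes are also fibroblast products. Of the 5 fibroblast markers 4 were tested, and they did not move together. The collagen gene Col3a1 was lower (-0.80, from 808 to 491 TPM), the matrix proteoglycan gene Dcn was higher (0.96, from 137 to 285 TPM), and Pdgfra and Lum did not pass. What fibroblast-like cells contribute was not tested.

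For Nr4a partners and metabolic genes that Nr4a receptors are known to act on in muscle, 17 of 20 were tested, 1 was higher and 1 lower, a share of 11.8% beside 8.35% of all genes tested, so nothing is read about the list. The coactivator gene Ppargc1a was higher (0.56, adjusted p = 0.0386) and the glycolytic enzyme gene Eno3 lower (-0.41, adjusted p = 0.0493), both from edgeR. Both sat close to the threshold. Ppargc1a lost its call without WT 4, WT 5, WT 6 or any single RGECO library (adjusted p from 0.0531 to 0.101 from edgeR). Eno3 lost it without any single library other than RGECO 3 (adjusted p from 0.0599 to 0.138). All 12 partners of the Nab proteins in the NuRD complex, a chromatin remodeller with histone deacetylases, were tested and 0 were called by edgeR (0 at an unadjusted p under 0.05), with log2 fold changes from -0.38 to 0.19 and every 95% interval within 2-fold.

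Of the spindle fibre list, which holds genes tied to the fibres of the spindle, 9 of 11 were tested and 2 called, a share of 22.2% beside 8.35% of all genes tested. Nrg1, the neuregulin signal that induces spindle fibres, was lower (-1.25 ± 0.18 SE), from 20.1 ± 4.20 CPM (SD, n = 6) to 8.44 ± 1.34 (SD, n = 5), and the Ets factor gene Etv4 was higher (0.74, adjusted p = 0.0262 from edgeR). Nrg1 lost its call on the TPM scale (adjusted p = 0.0583 from limma), and Etv4 lost it without the count filter (adjusted p = 0.0642 from edgeR) and without WT 1, WT 4, WT 6, RGECO 1 or RGECO 3 (adjusted p from 0.0513 to 0.0680). Of 9 Arc partners tested, Sh3gl3, an endophilin gene, was lower (-1.23, adjusted p = 0.0307 from edgeR) and 8 did not pass, a share of 11.1% called, again beside 8.35%. Sh3gl3 was rare, from 3.61 ± 0.952 CPM (SD, n = 6) to 1.55 ± 0.448 (SD, n = 5), and its call was lost when WT 4, WT 5, WT 6, RGECO 2, RGECO 3 or RGECO 6 was left out (adjusted p from 0.0505 to 0.0728).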

How the data were processed

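The authors deposited estimated counts per gene and TPM per gene, both merged over samples by Salmon, per the file headers and names. Salmon, STAR, bedtools 2.25.0 and BWA 0.7.12-r1039 are named in the submitters' processing notes, as are the builds GRCm39, mm10 and hg19, with no roles given. After rounding, the estimated counts went into edgeR 4.0.16 under R 4.3.3 (filterByExpr, TMM, robust quasi-likelihood F test, Benjamini-Hochberg adjustment over 13318 genes). The method was tested on simulated data. Alternatives used limma 3.58.1, DESeq2 1.42.0, other filters and scalings, covariates and left-out libraries. Correlations used log2 CPM with a prior count of 2 and 100000 two-sided permutations within lines. Libraries under 1000000 counts were left out.

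The members and lists were chosen with earlier results of these data known. Named genes are the members, Egr4, the called genes of each list (up to 6 in each direction by absolute fold change), and the 6 genes most like Egr1 and Egr3, without predicted genes. Positions come from GENCODE M21 (GRCm38) and promoters from RefSeq (GRCm38.p6), not from the counting annotation.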

Additional observations from a re-analysis of the deposited data

How the results depend on the processing

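The calls of Egr2, Egr3, Nr4a3 and Arc were kept in all 22 alternatives. These alternatives fit again the contrast that chose the genes, so they describe the processing and add no independent evidence. The number of the 9 genes called lower was 4 in each, except 5 when the mitochondrial share and 6 when the Malat1 share was a covariate. Egr1 was then called at -0.34 and -0.36, and Nr4a1 with the Malat1 share at -0.45. Nab2 ran from -0.19 to 0.03 as single libraries were left out, changing sign without WT 2 (0.034) and without RGECO 2 (0.018).

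Genome-wide, 1112 genes were called (456 higher, 656 lower). All 12 libraries gave 237 higher, DESeq2 1674 called with 753 higher, log2(TPM + 1) 605 with 261 lower, log2(TPM + 0.1) 587 with 257 lower, and the mitochondrial and Malat1 covariates 3133 (1614 higher, 1519 lower) and 2771 (1395 higher, 1376 lower). Without the shallow RGECO libraries 1 and 5, chosen after seeing the data, 291 were higher. The lists together had 5 higher and 16 lower. They had 2 and 8 with all 12 libraries, 3 higher without the count filter, 10 and 8 lower on log2(TPM + 1) and log2(TPM + 0.1), 15 and 29 with the mitochondrial and 11 and 25 with the Malat1 covariate, and 2 higher without the shallow libraries. Leaving out single libraries gave 2 to 5 higher, with 2 or 3 without WT 1, WT 4, WT 6, RGECO 1 or RGECO 3. The cause was not tested.

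The replicate block gave 300 genes higher and 777 called, with 2 list genes higher. Same-numbered libraries correlated at -0.15 to 0.36, with the highest value for replicate 6. The labels do not say whether a number marks a shared culture or day, and these correlations cannot decide it. Depth limits Nr4a2 and Nr4a3, with as few as 15 and 8 counts.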
